A study of Oryza sativa with 12 samples.

Results

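The genes described here had lower transcript levels in the leaf and higher levels in the root of the rice line f3h than in wild-type rice. They were chosen by their levels, as CPM, a gene's counts scaled to a common library total. A member had a group mean of at least 1 CPM in all 4 groups, a WT root level of at least 1% of its WT leaf level, an f3h to WT ratio of at most 0.5 in leaf and a ratio of at least 2 in root, with 0.5 CPM added to every mean. Of 37960 genes in the table, 16650 met the level criteria and 30 met both ratios. The locus Os02g0306401 was left out by the rule, and its leaf ratio of 0.719 did not meet the leaf threshold. Because the f3h to WT ratios chose the members, the genotype differences below are a description and carry no test.

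The groups were WT leaf, f3h leaf, WT root and f3h root, each with 3 libraries of 1-month-old rice (Oryza sativa) seedlings. The WT was the cultivar that the titles name ZH11. The labels give the other genotype as an f3h knockdown, while the design text speaks of Crispr mutants. The targeted locus and the number of lines or clones were not stated in the sources used here. All plants were raised in Kimura nutrient solution at 28 degrees Celsius with 12 h of light and 12 h of dark. Nothing in the labels ties the 3 libraries of a group to separate plants or pools, so the spread between them may be technical, and p-values measure only that spread.

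Flavanone 3-hydroxylase, the enzyme after which the line is named, hydroxylates flavanones to dihydroflavonols, the precursors of flavonols, anthocyanins and proanthocyanidins. Leaf and root run largely different transcript programmes, and many genes active in both organs are set to different levels in each by transcription factors and hormones. A genotype difference of opposite sign in these organs can be hidden when whole plants are pooled.

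Total counts were 31171931 to 37821918 in leaf and 23740780 to 29687320 in root libraries. The smallest summed count of a member in any group was 105 and the largest 27447. Of the 4 loci listed as flavanone 3-hydroxylase genes or as similar to them, none was a member, and none of these names passed the check against the reference. Os10g0536400 had 53.7 ± 3.21 CPM in leaves of WT and 85.3 ± 3.42 CPM in those of f3h, and 35.3 ± 2.98 and 33.4 ± 1.67 CPM in the roots (SD, n = 3). Os03g0122300 had 35.7 ± 9.71 and 23.9 ± 1.60 CPM in the leaves and 67.9 ± 2.96 and 73.9 ± 3.44 CPM in the roots. Os04g0662600 and Os04g0667200 had at most 0.0358 CPM in leaf, and 0.459 and 1.13 CPM in roots of WT against 0 and 0.935 CPM in those of f3h. With the targeted locus not stated, these values do not check the genotype labels. The organ labels were checked with marker lists. The 8 root cell genes summed to 22.5 to 29.9 CPM in leaf libraries, to 3769 to 3925 CPM in WT root and to 3560 to 3603 CPM in f3h root. Among them, CASP1 (Os04g0684300), a Casparian strip gene of the endodermis, had no count in WT leaf and root means of 86.0 CPM for WT and 26.2 CPM for f3h, and CSLD1 (Os10g0578200), a root hair gene, had 21.0 and 7.42 CPM in the roots. Others of the list changed less. LSI1 (Os02g0745100) had 2021 and 1857 CPM in the roots of WT and f3h, and Os03g0107300 had 1433 and 1476 CPM. These loci made up most of the root sums. Os11g0124300 had 10.6 CPM in leaf and 20.6 CPM in root for WT, but 16.0 and 15.1 CPM for f3h, so it did not mark root there. Over the 10 leaf photosynthesis genes, the leaf libraries gave sums of 45050 to 53490 CPM for WT and 40830 to 41650 CPM for f3h. CAB2R (Os01g0600900), a chlorophyll a/b binding protein gene, had leaf means of 16680 and 5716 CPM, in that order. The means of CAB1R (Os09g0346500), Os01g0501800, Os12g0274700 and GS2 (Os04g0659100) were also lower in f3h leaf. Those of RCA (Os11g0707000, 9870 and 13710 CPM), GLO1 (Os03g0786100, 419.9 and 657.7 CPM), Os07g0658400, Os12g0291100 and Os12g0292400 were higher. The lower sum was thus not shared by all genes of the list, and the difference of CAB2R alone exceeded that between the mean sums. In root, the 10 genes summed to 220 to 240 CPM. The locus Os07g0658400 alone gave 210 CPM of this in WT and 123.3 CPM in f3h. The sums of both lists thus differed between the genotypes in their own organ without overlap, while single genes of the lists differed in size or direction. The part of this in the members' differences was not tested. In bulk samples, fewer cells of a type and less RNA per cell cannot be told apart.

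In leaf, 835 of the 16650 genes met the leaf ratio (5.02%), and in root 278 met the root ratio (1.67%). The 30 members made up 3.59% of the first set and 10.8% of the second. For comparison, 97 genes had a ratio of at most 0.5 in both organs, 41 a ratio of at least 2 in both, and 70 a ratio of at least 2 in leaf and at most 0.5 in root. In all, 730 genes had a ratio of at least 2 in leaf, and 691 a ratio of at most 0.5 in root. Across the 16650 genes, which are not independent replicates, the log2 ratios in leaf and in root had a Pearson r of 0.072, a measure of linear relation only. The members' leaf levels were 2.03 to 8.15 times lower in f3h (median 2.41), and 10 of them were at least 3 times lower. In root they were 2.04 to 4.79 times higher (median 2.3), with 22 under 2.5 times and 1, Os08g0231400, over 3 times higher.

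**Figure D1:**
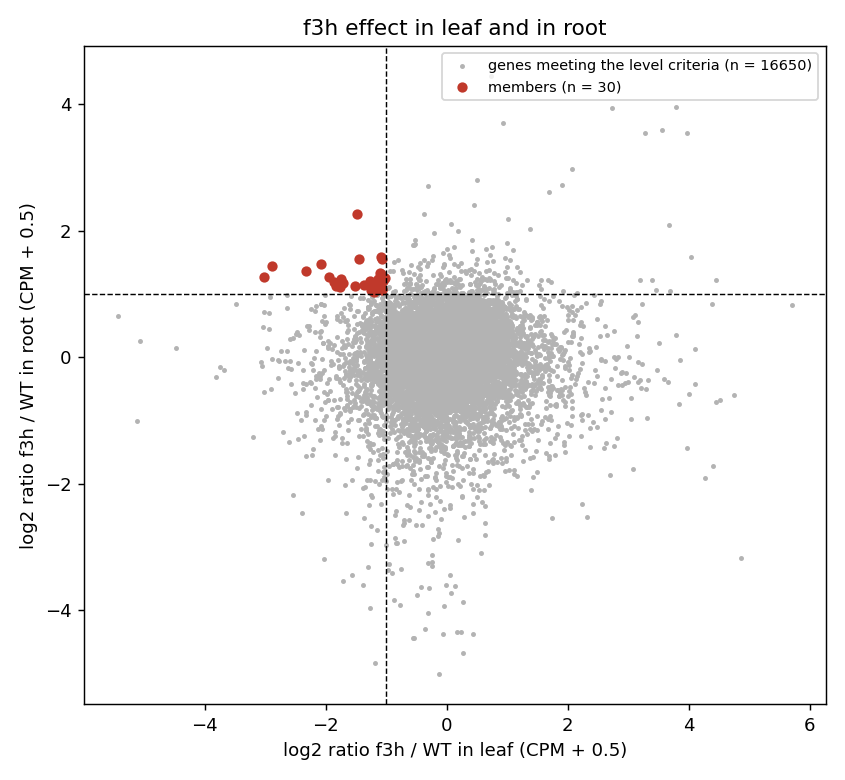
Each point is a gene that met the level criteria, with its log2 ratio of f3h to WT in leaf on the x axis and in root on the y axis (group means plus 0.5 CPM), and dashed lines mark the thresholds. The 30 members, in red, fill the upper left corner, and the ratios of the 16650 genes in leaf and root have little linear relation (r = 0.072).

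No member had overlapping genotypes in either organ. In all 30, every f3h leaf library was below every WT leaf library, as in 27.5% of the 16650 genes, and every f3h root library was above every WT root library, as in 34.1%. The edgeR test, adjusted over all genes, called 18.6% of genes lower in f3h leaf and 24.9% higher in f3h root, and the 30 members were among both. The rule used these contrasts, so nothing is read from these counts.

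The deposited table gives locus identifiers without gene names, and the reference table pairs no member with a name. Of the 30, 3 could be named from general knowledge of rice loci, with the name found in the reference on the same chromosome and near the place that the identifier implies. These are SPL14 (Os08g0509600), SMOS1 (Os05g0389000) and PBZ1 (Os12g0555500). SPL14 and SMOS1 were named after their values had been seen. The other 27 are given by locus, with no role.

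SPL14, also called IPA1, encodes an SBP-box transcription factor that limits tillering and promotes panicle branching, and its transcript is a target of the microRNA miR156. Its levels were 5.0, 4.71 and 4.43 CPM in the WT leaf libraries and 1.20, 2.32 and 1.51 CPM in f3h leaf. In root they were 8.79, 7.91 and 7.51 CPM in WT and 21.3, 17.5 and 18.8 CPM in f3h. SPL14 thus stood lowest in f3h leaf and highest in f3h root, and the 4 groups did not overlap. The means were 2.40 times lower in f3h leaf and 2.3 times higher in f3h root.

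SMOS1 encodes an AP2-type transcription factor that controls organ size through cell expansion and acts in auxin and brassinosteroid responses. It stood at 8.21, 9.05 and 6.8 CPM in the WT leaves, and at 2.94, 3.77 and 4.39 CPM in f3h leaf. The root libraries had 8.79, 9.52 and 8.29 CPM in WT and 20.6, 22.9 and 21.9 CPM in f3h. With library totals, the WT organs overlapped, whereas the f3h organs were far apart, at 3.70 ± 0.729 CPM in leaf and 21.8 ± 1.14 CPM in root (SD, n = 3). SMOS1 was the member nearest to the leaf threshold, with a ratio of 0.493.

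PBZ1 encodes a probenazole-inducible protein of the PR10 family of pathogenesis related proteins. The WT leaf libraries had 119, 161 and 160 CPM and the f3h leaf libraries 48.5, 43.4 and 41.4 CPM. In root, the levels were 13.7, 17.6 and 12.9 CPM in WT and 37.9, 31.3 and 32.9 CPM in f3h. Leaf stayed above root in both genotypes. With library totals, the gap between the organ means narrowed from 147 against 14.8 CPM in WT to 44.5 against 34.1 CPM in f3h. PR10 genes form a family of similar sequences, which may share reads. PBZ1 was the sole member in 18 lists of known rice genes (defence, photosynthesis, clock, iron, nitrogen, phosphate, flavonoid and hormone genes among them), in which 95 of 174 loci met the level criteria.

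**Figure D2:**
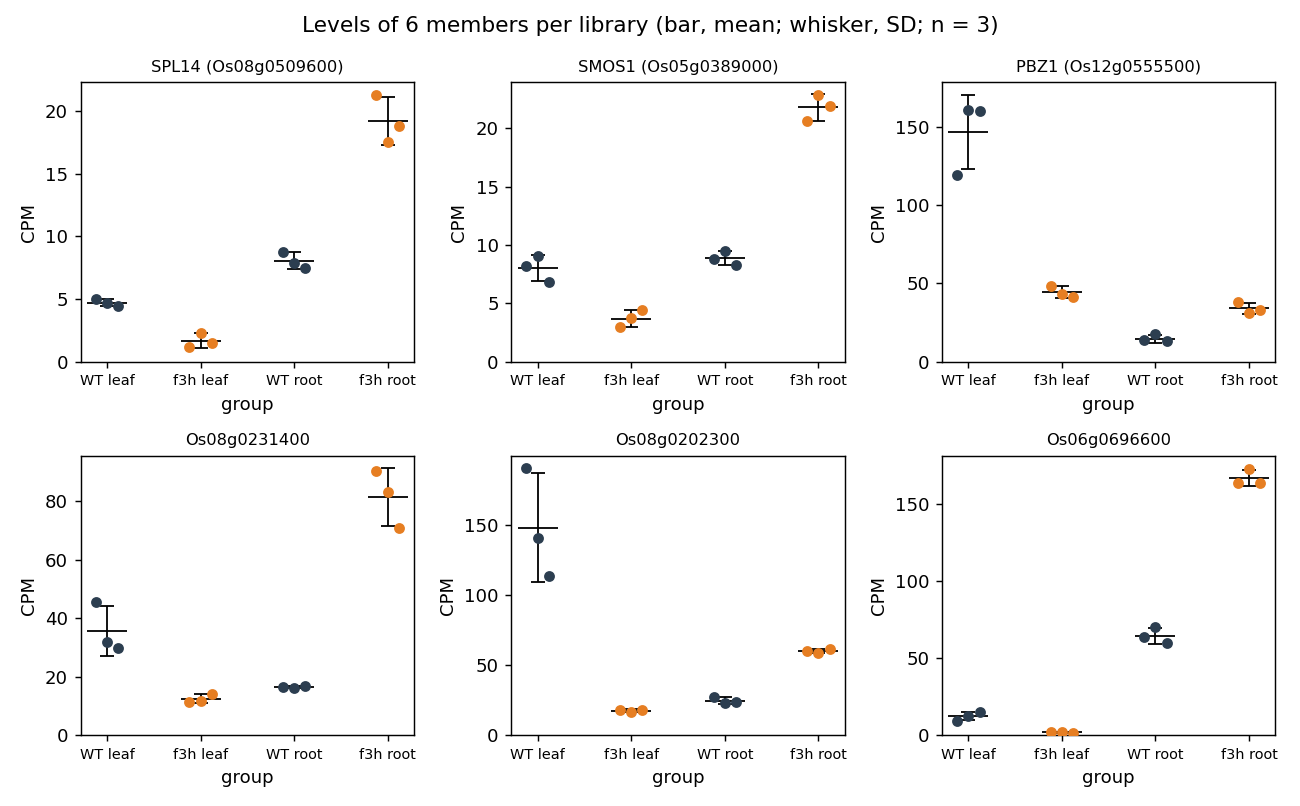
CPM on the y axis for 6 members in the 4 groups, with a point per library, a bar for the mean and whiskers for the SD (n = 3). SPL14 and SMOS1 are highest in f3h root, at 19.2 and 21.8 CPM, PBZ1 is highest in WT leaf, at 147 CPM, and in all 6 panels f3h leaf is below WT leaf and f3h root above WT root.

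The members fell into groups by the organ in which WT had more of the transcript. In WT, every leaf library was above every root library for 18 members, the reverse held for 8, and 4 overlapped, against 23.5% and 55.0% of the 16650 genes with leaf and root higher. In f3h, leaf was higher without overlap for 4 members and root for 25, against 24.0% and 61.5% of genes. The rule makes the root to leaf ratio of every member higher in f3h than in WT. These shares thus follow in part from the choice of members. The orders also depend on the scaling of leaf against root. With TMM-scaled totals, WT leaf was higher for 21 members and WT root for 7, and f3h leaf was higher for 4 and f3h root for 22.

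For 13 members the order of the organs turned over, with leaf above root in WT and root above leaf in f3h, where 2.48% of the 16650 genes did so. The share follows in part from the choice of members. With library totals, TMM and DESeq2 size factors alike, 10 of the 13 turned over. Os08g0202300 had 190, 140 and 114 CPM in the WT leaf libraries and 18.2, 16.9 and 18.2 CPM in f3h leaf, a mean 8.15 times lower and the farthest below WT of any member. Its root levels were 27.5, 23.2 and 23.6 CPM in WT and 60.1, 59.0 and 61.8 CPM in f3h. The locus thus went from a mean of 148 CPM in leaf against 24.7 CPM in root in WT to 17.7 against 60.3 CPM in f3h.

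Os08g0231400 showed the greatest root difference of the members. WT root had 16.6, 16.2 and 17.0 CPM and f3h root 90.5, 83.1 and 70.8 CPM, a mean 4.79 times higher. Its leaf levels were 45.4, 31.8 and 29.9 CPM in WT and 11.5, 11.7 and 14.3 CPM in f3h, so that leaf was the higher organ in WT and the lower one in f3h. Os10g0524600 turned over with little spread in leaf. Its leaf libraries had 40.7, 43.2 and 39.7 CPM in WT against 8.84, 9.25 and 9.97 CPM in f3h. Its root libraries had 11.7, 15.1 and 17.0 CPM in WT against 37.0, 44.7 and 41.7 CPM in f3h. With library totals, its mean in f3h root, 41.2 CPM, was the same to 3 digits as its mean in WT leaf. That match depends on the scaling of leaf against root.

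Os09g0471500 was 7.38 times lower in f3h leaf and 2.72 times higher in f3h root. The leaf levels were 22.7, 17.9 and 18.4 CPM for WT, against 2.39, 1.86 and 2.43 CPM for f3h. The root levels were 2.04, 2.05 and 2.19 CPM for WT, against 7.17, 7.02 and 5.48 CPM for f3h. WT leaf stood far above the other groups, and f3h leaf was next to WT root. Os02g0609500 had 17.5 ± 2.84 CPM in WT leaf, 4.16 ± 1.27 in f3h leaf, 6.41 ± 1.22 in WT root and, in f3h root, 16.2 ± 3.56 CPM (SD, n = 3). Os05g0406550 had 14.8 ± 5.61, 4.07 ± 0.106, 3.63 ± 0.843 and 9.22 ± 1.86 CPM in the same order. Its WT leaf replicate 1, at 8.47 CPM, lay below replicates 2 and 3, at 19.2 and 16.8 CPM, and above all f3h leaf libraries. The other 6 loci of the 13 with an organ order that turned over, besides Os06g0109100 described with the replicates, had smaller differences in leaf. Their leaf means were 2.09 to 2.2 times lower in f3h, at 5.78 ± 1.18 CPM (Os05g0516100) to 23.0 ± 2.93 CPM (Os01g0188900) in WT. Their root means were 2.1 times (Os05g0149500) to 2.99 times (Os01g0188900) higher, with Os07g0530400 at 2.93, Os02g0699800 at 2.51 and Os08g0304900 at 2.48 times.

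The members that stayed higher in leaf in both genotypes were PBZ1, Os10g0517500, Os04g0604250 and Os04g0282200, under all 3 scalings. Os10g0517500 was the most abundant member in leaf, at 286, 260 and 279 CPM in WT and 122, 115 and 120 CPM in f3h. In root it had 11.8, 15.2 and 13.2 CPM in WT and 29.6, 32.1 and 21.8 CPM in f3h, where its ratio of 2.04 was the closest to the threshold. It was the member lost with TMM-scaled totals and with DESeq2 size factors, and it was also lost with 1 CPM added, with a WT root share of 5% and without WT root replicate 1, f3h root replicate 1 or f3h root replicate 2. In leaf, Os04g0604250 had 124, 62.0 and 68.3 CPM in WT and 30.6, 26.7 and 30.3 CPM in f3h. In root, the WT libraries had 2.95, 1.87 and 2.73 CPM and those of f3h 4.15, 6.02 and 8.04 CPM. The root groups of this locus lie apart, but by little compared with their spread. The same holds for Os04g0282200, where the highest WT root library had 1.90 CPM and the lowest f3h root library 1.93 CPM. With library totals, Os03g0386800 was the sole member whose organs overlapped in f3h, with 10.6, 9.53 and 10.3 CPM in leaf and 14.7, 15.4 and 10.4 CPM in root. In WT it was higher in leaf, with 37.0, 25.9 and 22.9 CPM against 3.13, 3.66 and 6.10 CPM in root. With TMM, Os01g0188900, Os02g0699800 and Os08g0304900 overlapped in f3h as well, and with DESeq2 size factors the first 2 of these.

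For the 8 members with root above leaf in WT, the choice of members makes the organs more unequal in f3h. The leaf levels of Os06g0696600 were 9.66, 12.6 and 14.9 CPM in WT and 2.07, 2.35 and 1.75 CPM in f3h. Its root levels were 63.9, 69.9 and 59.6 CPM in WT and 164, 172 and 164 CPM in f3h. With library totals, root was therefore 5.21 times leaf in WT and 81.0 times leaf in f3h. The size of these folds depends on the scaling of leaf against root. Os03g0279200, the most abundant member in root, had root levels of 133, 135 and 121 CPM in WT and 286, 295 and 290 CPM in f3h. Its leaf levels were 14.2, 23.6 and 21.5 CPM in WT and 7.72, 9.81 and 8.14 CPM in f3h, so that f3h root had the most and f3h leaf the least.

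Os11g0502700 had 10.5 ± 1.85 and 2.52 ± 0.597 CPM in the leaves of WT and f3h and 31.3 ± 3.70 and 71.8 ± 1.91 CPM in their roots (SD, n = 3). Os03g0119900 had 13.0 ± 3.81 and 4.74 ± 0.655 CPM in the leaves and 29.2 ± 4.57 and 65.2 ± 2.67 CPM in the roots. Os01g0192000 was at 15.2 ± 4.39 and 6.12 ± 0.523 CPM in the leaves and at 40.2 ± 3.0 and 84.2 ± 0.626 CPM in the roots. These 3 loci kept root above leaf in every library of both genotypes, as did Os05g0439100, Os02g0675700 and SPL14, although the WT organs of Os02g0675700 overlapped with TMM-scaled totals. The root levels of Os05g0439100 were 29.7 ± 2.0 CPM in WT and 62.1 ± 5.34 CPM in f3h. Os02g0675700 had the lowest WT leaf mean of the members, 4.03 ± 0.887 CPM.

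SMOS1, Os05g0136400, Os01g0174700 and Os11g0554200 had similar levels in the WT organs. In WT, Os05g0136400 had 30.6, 29.6 and 25.1 CPM in leaf and 26, 21.9 and 25.8 CPM in root. In f3h it had 8.19, 7.15 and 8.72 CPM in leaf and 49.8, 52.9 and 58.3 CPM in root. With library totals, the organs overlapped in WT and were 6.69 times apart in f3h. The same was seen for Os01g0174700, with 12.9 ± 1.57 and 10.8 ± 0.809 CPM in WT leaf and root and 5.02 ± 1.24 and 24.8 ± 1.62 CPM in f3h leaf and root (SD, n = 3). Os11g0554200 had the lowest f3h leaf mean of the members, 1.59 ± 0.299 CPM, and 9.45 ± 1.60 CPM in f3h root. With TMM-scaled totals Os05g0136400, Os01g0174700 and SMOS1 were higher in leaf in WT, with no overlap.

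**Figure D3:**
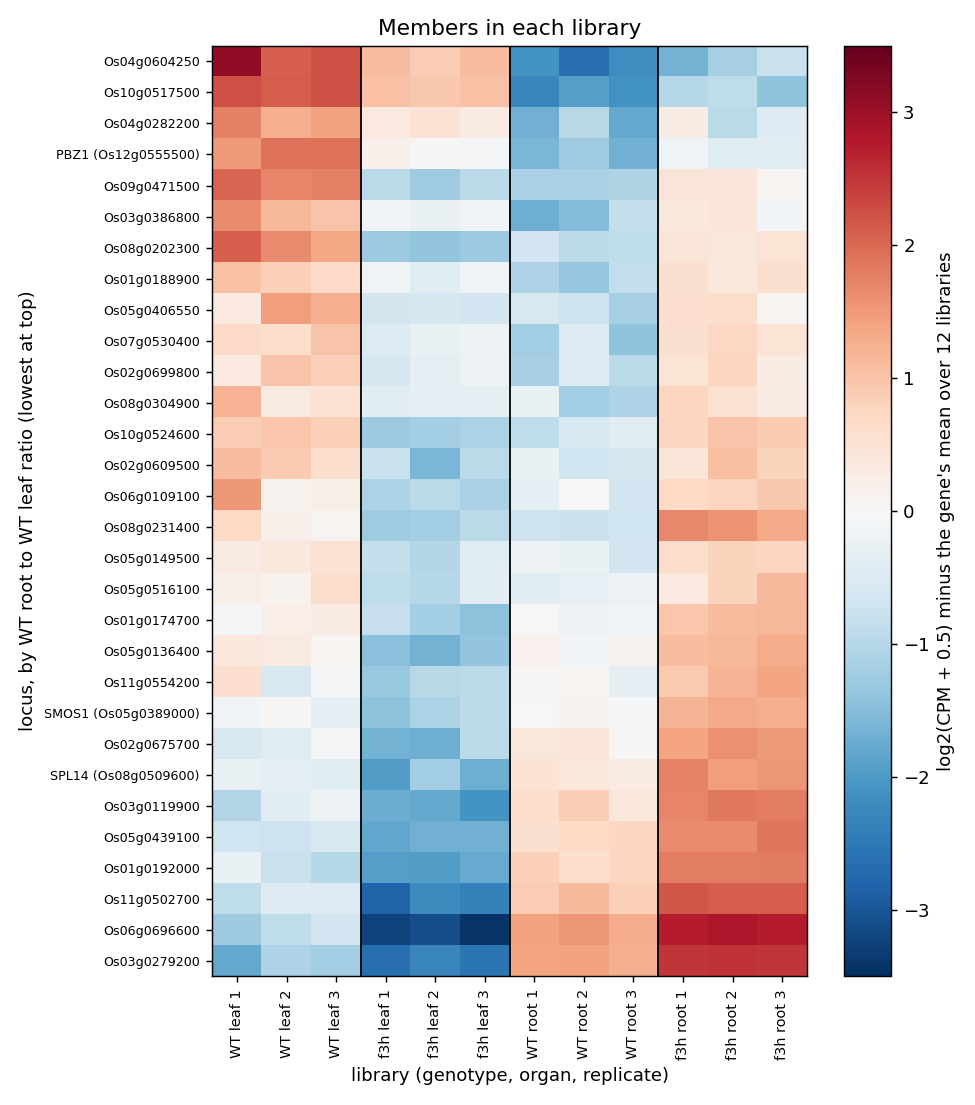
Each row is a member, ordered by its WT root to WT leaf ratio, each column a library, and the colour gives log2(CPM + 0.5) minus the gene's mean over the 12 libraries. Rows at the top are reddest in WT leaf and rows at the bottom in f3h root, and the f3h leaf block is bluer than the WT leaf block in all 30 rows.

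The difference between the organs averaged over the genotypes was tested, since its contrast is orthogonal to the f3h effects that chose the members. Orthogonal contrasts are independent only where the groups have equal spread. Over the 16650 genes, the median coefficient of variation was 14.6% in WT leaf and 7.23% in f3h leaf. The result for the members is thus not fully free of their choice. It is not free of the level criteria: both the minimum of 1 CPM in all 4 groups and the floor on the WT root share limit it, so the genes that met them are the nearer background. In edgeR's quasi-likelihood test on all 12 libraries, with Benjamini-Hochberg adjustment over 26328 genes and a log2 fold change of at least 1 in size, 8 members were higher in root (26.7%) and 10 lower (33.3%). Of all genes tested, 30.5% were higher and 22.4% lower, and of the 16650 that met the level criteria, 15.9% and 20.8%. The median log2 difference of root minus leaf was -0.19 over the members, -0.08 over the genes that met the level criteria and 0.14 over all genes tested. The members thus held genes of either organ. The count of 10 fell to 6 with upper quartile normalization and to 5 with library totals alone, which moved the log2 difference of all genes by a median of 0.24 and 0.60. The median of the members was then 0.05 and 0.41, so that its sign turned.

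Among those higher in root were Os06g0696600 (log2 difference of root minus leaf 3.77 ± 0.11, SE, adjusted p = 3.86e-14 in edgeR), Os03g0279200 (3.30 ± 0.11), Os11g0502700 (2.61 ± 0.12) and Os01g0192000 (2.0 ± 0.11). SPL14 was higher in root by 1.55 ± 0.15 on the log2 scale (edgeR, adjusted p = 1.07e-07), over both genotypes. Those lower in root included Os04g0604250 (-4.27 ± 0.20, edgeR, adjusted p = 1.32e-11), Os10g0517500 (-3.82 ± 0.10), Os04g0282200 (-2.64 ± 0.24) and PBZ1 (-2.45 ± 0.10, adjusted p = 3.62e-12). SMOS1, at 0.76 ± 0.12, did not reach the fold limit, but did with library totals alone (log2 1.35). Of the 12 members not called, 7 had an adjusted p under 0.05 with a difference below the limit.

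**Figure D4:**
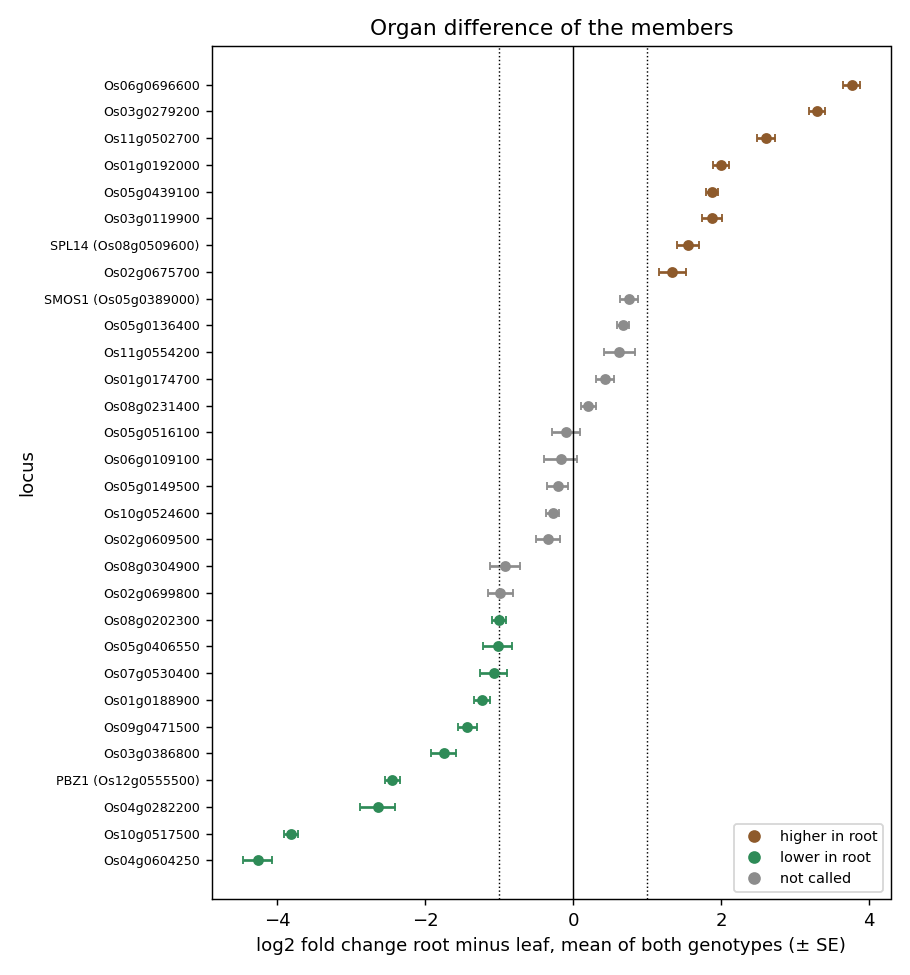
The x axis gives the edgeR log2 fold change of root minus leaf, averaged over the genotypes, with its SE, for the 30 members on the y axis, and colours mark the calls at an adjusted p under 0.05 beyond the dotted limits. Points run from -4.27 for Os04g0604250 to 3.77 for Os06g0696600, with 8 called higher and 10 called lower in root.

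Transcripts of the leaf photosynthesis genes were also read in root libraries, mostly at a trace level that was set beside the members. Whether they came from leaf RNA or from root cells was not tested. Of the 10 leaf photosynthesis genes, the 8 with under 0.9% of their leaf level in f3h root, a limit set after the values were seen, stood at 0.00929 to 0.0759% of their WT leaf level in WT root and at 0.0964 to 0.425% of their f3h leaf level in f3h root. GS2 (Os04g0659100), a plastid glutamine synthetase gene, stood at 0.891% in WT and 0.995% in f3h. Os07g0658400 went the other way, from 12.5% in WT to 6.06% in f3h. Among the members, f3h root stood at 20.8 to 8103% of f3h leaf, and the difference between f3h root and WT root was 12.1 to 4965% of the f3h leaf level (median 231%). These values include those that chose the members. The median of the list of 10 in f3h root was 0.24%. That share of a member's f3h leaf level was at most 1.99% of its root difference (Os10g0517500). The floor on the WT root share and the ratios of the rule keep this value low for any member, so nothing is read from it. The part of leaf RNA in the root differences was not tested.

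**Figure D5:**
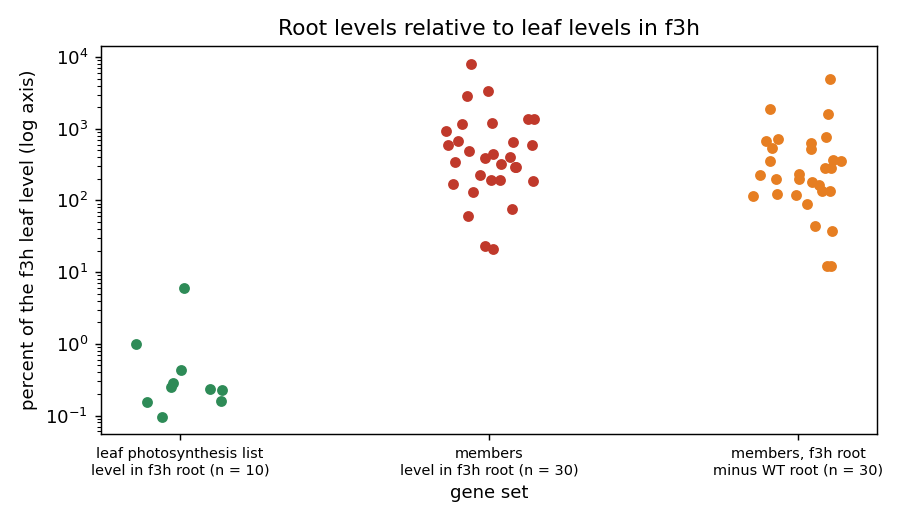
Root levels in f3h as a percent of the f3h leaf level, on a log axis, for the 10 leaf photosynthesis genes (green), for the 30 members (red), and for the difference of f3h root minus WT root of the members (orange). The lowest member level was 20.8%, and 8 of the 10 leaf genes were at 0.425% or below.

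The members varied more between replicates than the median gene that met the level criteria. The coefficient of variation had a median of 19.3% in WT leaf, 12.3% in f3h leaf, 15.6% in WT root and 9.70% in f3h root, against 14.6, 7.23, 7.61 and 7.66% over the 16650 genes. The members had lower levels, with medians over them of 13.6, 5.11, 7.25 and 18.5 CPM in the same order of groups, against 18.7, 18.4, 23.9 and 24.6 CPM over the 16650 genes. WT leaf replicate 1 differed from replicates 2 and 3 by a median of 0.42 on the log2 scale in absolute size over the members and 0.28 over the 16650 genes. In Os06g0109100 that library had 24.3 CPM against 8.82 and 9.34 CPM, and f3h leaf had 3.45, 3.96 and 3.41 CPM, while the root means were 6.35 ± 1.53 CPM in WT and 14.5 ± 1.45 CPM in f3h. Without WT leaf replicate 1, 28 genes met the rule, 25 of them members. Os11g0554200, Os08g0304900, Os01g0188900, Os01g0192000 and Os04g0282200 were the members lost.

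When each library was left out in turn, 15 of the 30 met the rule every time, among them SPL14, PBZ1, Os08g0231400, Os08g0202300, Os09g0471500 and Os06g0696600. SMOS1 was lost without WT leaf replicate 2 and without f3h leaf replicate 1. Os04g0282200 and Os05g0516100 were the least stable, and met the rule in 8 of the 12 cases. Just inside the leaf threshold were SMOS1, Os02g0675700 and Os07g0530400, with ratios of 0.493, 0.481 and 0.479, and just outside it were Os09g0509700, Os08g0490900 and Os02g0832150, with 0.510, 0.518 and 0.522. Just inside the root threshold were Os10g0517500, Os05g0439100 and Os01g0192000, with 2.04, 2.08 and 2.08. Os09g0427300, Os06g0145950 and Os05g0589700 lay just outside it, with 2.0 (log2 0.9998), 1.99 and 1.98.

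The members were scattered over all 12 chromosomes, as the identifiers give them, with 6 on chromosome 5, 4 on chromosome 8 and at most 3 on any other. Chromosome 5 held 8.46% of the 16650 genes. No member was the nearest neighbour of another in locus order among the genes that met the level criteria. Of the 60 nearest neighbours, 23 (38.3%) were lower in f3h leaf and higher in f3h root by any amount, against 28.1% of the 16650 genes. In leaf, 7 of the 60 had a ratio of at most 0.5, against 5.02% of the 16650 genes. In root, 2 of the 60 had a ratio of at least 2, against 1.67% of these genes.

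Around Os09g0471500, the loci on both sides had a like pattern of smaller size in root. Os09g0471400 had 28.3 ± 5.46 CPM in WT leaf, 9.88 ± 1.31 in f3h leaf, 1.76 ± 0.125 in WT root and, in f3h root, 3.25 ± 1.17 CPM (SD, n = 3). Os09g0471550, on the other side, had 3.72 ± 1.09, 0.495 ± 0.357, 3.84 ± 0.894 and 6.03 ± 1.42 CPM. Next to Os04g0604250, Os04g0604200 stood at 2.93 ± 0.897, 1.31 ± 0.107, 3.63 ± 0.999 and 7.60 ± 0.407 CPM in the same order. It would have been a member with 0.1 CPM added in place of 0.5. Whether the counting used strand is not given in the sources used here, so adjacent loci may share reads. Next to SPL14, Os08g0509500 had 5.95 ± 1.02 CPM in leaves of WT and 10.4 ± 1.23 CPM in those of f3h, the reverse of SPL14, and 10.7 ± 1.57 and 15.1 ± 3.17 CPM in the roots. On its other side, Os08g0510101 had no count in leaf and 1.37 ± 0.427 and 5.21 ± 0.873 CPM in the roots of WT and f3h.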

How the data were processed

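Libraries were prepared from total RNA with an mRNA kit, per the labels' protocols. The deposited values are raw counts: 1 whole number per gene and library. The submitters' processing notes name fastp, HISAT2, featureCounts and DESeq. Tool versions, genome build, annotation and strandedness were not given in the labels or headers used. The 12 columns were matched to samples by their labels.

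Members were taken from CPM by library total and means of 3 libraries. Tests used edgeR 4.0.16 in R 4.3.3 (filterByExpr, TMM, quasi-likelihood, Benjamini-Hochberg, adjusted p under 0.05), for f3h against WT on the 6 libraries of an organ and for root minus leaf, averaged over genotypes, on all 12, there with a log2 fold change of at least 1. DESeq2 1.42.0, limma 3.58.1 (voom), other normalizations, no count filter, a replicate block and leaving out each library were the alternatives. The procedure was tested on simulated counts. Names from general knowledge were kept where the reference table (assembly ASM3414082v1) held them on the chromosome of the locus within 10% of its length of the place implied by the identifier, a measure set after a first check by rank order had placed SMOS1 outside. Of 176 names, 126 were in the reference and 102 passed. The members and lists were chosen with earlier results of these data known. Named with full values were the members with the largest differences in both organs, the highest levels, a checked name, an extreme organ difference, or a place next to a threshold. Sequences and gene lengths were not used here.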

Additional observations from a re-analysis of the deposited data

How the results depend on the processing

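The number of members, 30, was 28 to 36 when a library was left out, and 23 to 40 under the other settings: 32 with TMM and 31 with DESeq2 size factors (29 of the 30 kept in each, without Os10g0517500), 40 with 0.1 CPM and 23 with 1 CPM added, 40 and 26 with a floor of 0.5 and 2 CPM, and 31 and 28 with a WT root share of 0.5 and 5%. The subtraction of the median leaf trace, which left 30, and the scaling by library totals alone were chosen after seeing the data. Given the floor on the WT root share, that subtraction could change little. For the organ difference, the 8 members higher in root were 8 without any 1 library and 12 with library totals alone, and the 10 lower in root were 7 to 12 without a library, 6 with upper quartile normalization and 5 with library totals alone. Over all genes, the 8022 higher in root became 11047 with library totals alone and the 5886 lower became 4386. The 4167 genes lower in f3h leaf were 2891 to 5423 and the 6130 higher in f3h root 5258 to 5760 without a library. Deviations of same-numbered libraries from their group means had r from -0.08 to 0.15 over 18 pairs, 2 above 0.1. Differently numbered libraries reached -0.18 and 0.18. With 3 libraries in a group, these values cannot decide whether the numbers pair the samples. With the replicate block, 8 members were higher and 9 lower in root. Low counts limit the members near 1 CPM most, where 105 counts were the fewest in a group.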
